A study of Mus musculus with 36 samples.

Results

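The transcripts of the mouse Fc gamma receptors Fcgr1, Fcgr3, Fcgr4 and Fcgr2b, of their shared signalling chain Fcer1g and of the kinase Syk were followed across 36 mouse pancreatic tumours. These 6 genes were taken by name from the 770 genes of a mouse nCounter PanCancer immune panel, an assay that hybridises a barcoded probe to each transcript and counts single molecules directly. All 6 were on the panel, and each was above background in 36 of 36 tumours. Cells of the murine pancreatic cancer line KPfC BMF-A3 had been placed in the pancreas of wild type C57BL/6 mice, whose age and sex the labels do not give. All tumours thus came from 1 implanted line in hosts with their own immune cells. The treated arms were TP-0903 (n = 4), Gemcitabine (n = 4), Anti-PD1 (n = 4), TP-0903+Gemcitabine (n = 5), TP-0903+anti-PD1 (n = 4), Gemcitabine+anti-PD1 (n = 4) and TP-0903+Gemcitabine+anti-PD1 (n = 5), and they were set against Vehicle (n = 6). Mice received TP-0903, which blocks the kinase Axl, daily by mouth at 25 mg/kg. The chemotherapy gemcitabine was dosed by injection at 25 mg/kg on 3 occasions weekly, and the anti-PD1 antibody (clone RMP14-1) at 5 mg/kg on 2 occasions weekly. Therapy started on day 10 after implantation and tumours were taken on day 35. The labels name separate tumours but give no litter or cage, so p-values measure the spread between these tumours.

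Fc gamma receptors bind the constant part of IgG and let myeloid cells, NK cells and B cells respond to antibody-coated targets. In the mouse, Fcgr1 (high affinity), Fcgr3 and Fcgr4 are activating receptors that signal through the Fcer1g chain, whose phosphorylated ITAM recruits the kinase Syk. Fcgr2b is the inhibitory receptor, whose ITIM recruits the phosphatase encoded by Inpp5d. In tumours these receptors are known mainly from macrophages, where they drive uptake of antibody-coated cells and can also capture therapeutic antibodies.

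On assembly GRCm38.p6, 4 of the 6 genes lie on chromosome 1 within 273.8 kb, namely Fcgr2b (chr1:170960558-170976071), Fcgr4 (chr1:171018926-171029761), Fcgr3 (chr1:171051169-171065915) and Fcer1g (chr1:171229572-171234349). Fcgr1 lies at chr3:96282909-96293969 and Syk at chr13:52582610-52648792. The positions of the probes within the transcripts are not given in the sources used here. Fcgr2b and Fcgr3 encode closely similar extracellular parts, so a share of one signal from the other transcript could not be checked.

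The promoter windows of the activating receptors and of Fcgr2b are shown because these receptors varied together across tumours, as described further on. The windows are from RefSeq on GRCm38.p6 and run from 250 bases before to 50 bases after an annotated start, 5′ to 3′ on the gene's strand. Capitals mark matches to GAGGAA, the core bound by the myeloid factor PU.1, and to TTCNNNGAA, the GAS element, both searched on both strands. The windows lie at chr3:96293920-96294219 (minus strand) for Fcgr1, chr1:171059354-171059653 (minus strand) for Fcgr3, chr1:171018676-171018975 (plus strand) for Fcgr4 and chr1:170976022-170976321 (minus strand) for Fcgr2b.
Fcgr1: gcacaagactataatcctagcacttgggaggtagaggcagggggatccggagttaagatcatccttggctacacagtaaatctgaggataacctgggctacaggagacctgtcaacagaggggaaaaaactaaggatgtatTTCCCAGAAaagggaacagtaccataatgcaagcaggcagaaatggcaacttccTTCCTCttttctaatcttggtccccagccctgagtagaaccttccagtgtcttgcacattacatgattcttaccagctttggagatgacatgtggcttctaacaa
Fcgr3: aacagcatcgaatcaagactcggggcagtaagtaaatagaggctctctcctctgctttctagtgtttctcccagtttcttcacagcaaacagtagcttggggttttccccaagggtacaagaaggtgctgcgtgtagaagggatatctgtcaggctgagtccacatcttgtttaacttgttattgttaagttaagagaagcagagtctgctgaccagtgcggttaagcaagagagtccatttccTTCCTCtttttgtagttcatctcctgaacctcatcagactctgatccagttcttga
Fcgr4: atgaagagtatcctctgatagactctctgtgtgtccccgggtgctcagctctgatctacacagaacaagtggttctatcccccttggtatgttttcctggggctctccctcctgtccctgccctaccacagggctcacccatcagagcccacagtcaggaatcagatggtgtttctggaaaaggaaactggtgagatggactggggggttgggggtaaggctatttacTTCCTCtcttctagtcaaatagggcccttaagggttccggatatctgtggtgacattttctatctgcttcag
Fcgr2b: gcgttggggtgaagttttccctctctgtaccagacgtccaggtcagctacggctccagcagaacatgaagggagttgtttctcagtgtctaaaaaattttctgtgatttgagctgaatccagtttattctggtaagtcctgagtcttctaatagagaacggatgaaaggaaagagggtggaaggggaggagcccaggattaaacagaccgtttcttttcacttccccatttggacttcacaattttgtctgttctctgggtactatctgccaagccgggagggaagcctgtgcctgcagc

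The 3 activating receptors each held 1 PU.1 core, read as its reverse complement, which began 55 bases before the start in Fcgr1, 6 bases before it in Fcgr3 and 22 bases before it in Fcgr4. An overlapping second window of Fcgr3 holds the same match, 15 bases before its start. Fcgr1 alone of the 6 genes also held a GAS match, 109 bases before its start. No match to either motif was in the windows of Fcgr2b and Fcer1g, and 1 of the windows of Syk held a PU.1 core. The 6 genes had 8 windows in all, and 4 of the 6 genes held a PU.1 core in at least 1 window. Of 32851 mouse promoter windows of the same length, 28.3% held a PU.1 core and 8.3% a GAS match. These shares count windows and not genes, and Fcgr3 and Syk had more than 1 window, so they are not a like measure. The matches describe letters only.

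Total counts ranged from 115973 to 552876 per tumour with a median of 357261.5, and 683 of 750 endogenous genes were tested. Values below are raw counts scaled to the geometric mean of 20 housekeeping genes in each lane, and a level is not compared between genes because each gene has its own probe. The macrophage markers Cd68, Csf1r, Emr1, Cd14 and Mrc1, the leukocyte marker Ptprc and the epithelial marker Epcam were above background in 36 of 36 tumours. The NK cell marker Ncr1 was above it in 2 tumours and was not tested. Of 5 NK cell markers on the panel 4 were tested, each above background in 4 or more tumours, so Ncr1 alone does not describe NK cell transcripts. In bulk tumour RNA, fewer cells of a type and less RNA per cell cannot be told apart. A pair of libraries stood apart from the rest. Vehicle replicate 3 had a scaled count of 11750 for the lung gene Cxcl15, with at most 48.1 in any other tumour. TP-0903 replicate 3 had 38170 for the liver gene H2-Q10, with at most 424 in the 34 tumours other than this pair, and 41.2 for Epcam. Results that rest on them are also given without both below, except where stated. Lanes ran on 3 cartridges of 12, and 5 arms shared no cartridge with Vehicle, so for those arms cartridge and treatment are linked only through arms split between cartridges.

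None of the 6 genes differed from Vehicle in any treated arm at an adjusted p under 0.05. In edgeR's quasi-likelihood test, 0 of 42 tests (6 genes in 7 arms) were called, and 5 of 42 had an unadjusted p under 0.05. DESeq2 and limma also called 0, with 4 and 5 tests at an unadjusted p under 0.05. Over all tested genes, the share called was 4.83% for TP-0903, 0% for Gemcitabine, 0% for Anti-PD1, 0.439% for TP-0903+Gemcitabine, 0% for TP-0903+anti-PD1, 0.146% for Gemcitabine+anti-PD1 and 0.878% for TP-0903+Gemcitabine+anti-PD1. The 33 genes behind the 4.83% became 0 without TP-0903 replicate 3. The share with an unadjusted p under 0.05 was 14.5%, 9.08%, 5.71%, 14.9%, 10.7%, 10.5% and 12.9% in the same arms. Without both libraries that stood apart 43 genes had an unadjusted p under 0.05 for TP-0903, against 99 with them, and 3 of the 42 tests did. Against that background the 5 tests of 42 are not a result about these genes.

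The point estimates lay mostly above 0. The median log2 fold over the 6 genes was 0.37 in TP-0903, with 0.06 over all tested genes. It was 0.34 in Gemcitabine (all genes -0.13), 0.31 in Anti-PD1 (-0.01), 0.37 in TP-0903+Gemcitabine (0.07) and 0.53 in TP-0903+anti-PD1 (-0.04). It was 0.50 in Gemcitabine+anti-PD1 (0.05) and 0.37 in TP-0903+Gemcitabine+anti-PD1 (-0.08). The fold was above 0 for all 6 genes in 6 arms and for 5 of 6 in Anti-PD1, where Fcgr1 was at -0.06 ± 0.34 (SE). Of all tested genes, between 36.3% (Gemcitabine) and 55.9% (TP-0903+Gemcitabine) had a fold above 0. Without both libraries that stood apart the medians over the 6 genes were between 0.33 and 0.53, and the fold was above 0 for all 6 genes in 2 arms and for 4 or 5 of 6 in the other 5 arms. The whole panel was then also higher. Its median log2 fold was between 0.04 in Gemcitabine and 0.27 in TP-0903+Gemcitabine, where that of the 6 genes was 0.39. Between 54.5% (Gemcitabine) and 72.9% (Anti-PD1) of all tested genes had a fold above 0. All 7 comparisons share the same Vehicle tumours, so their signs are not independent.

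**Figure D1:**
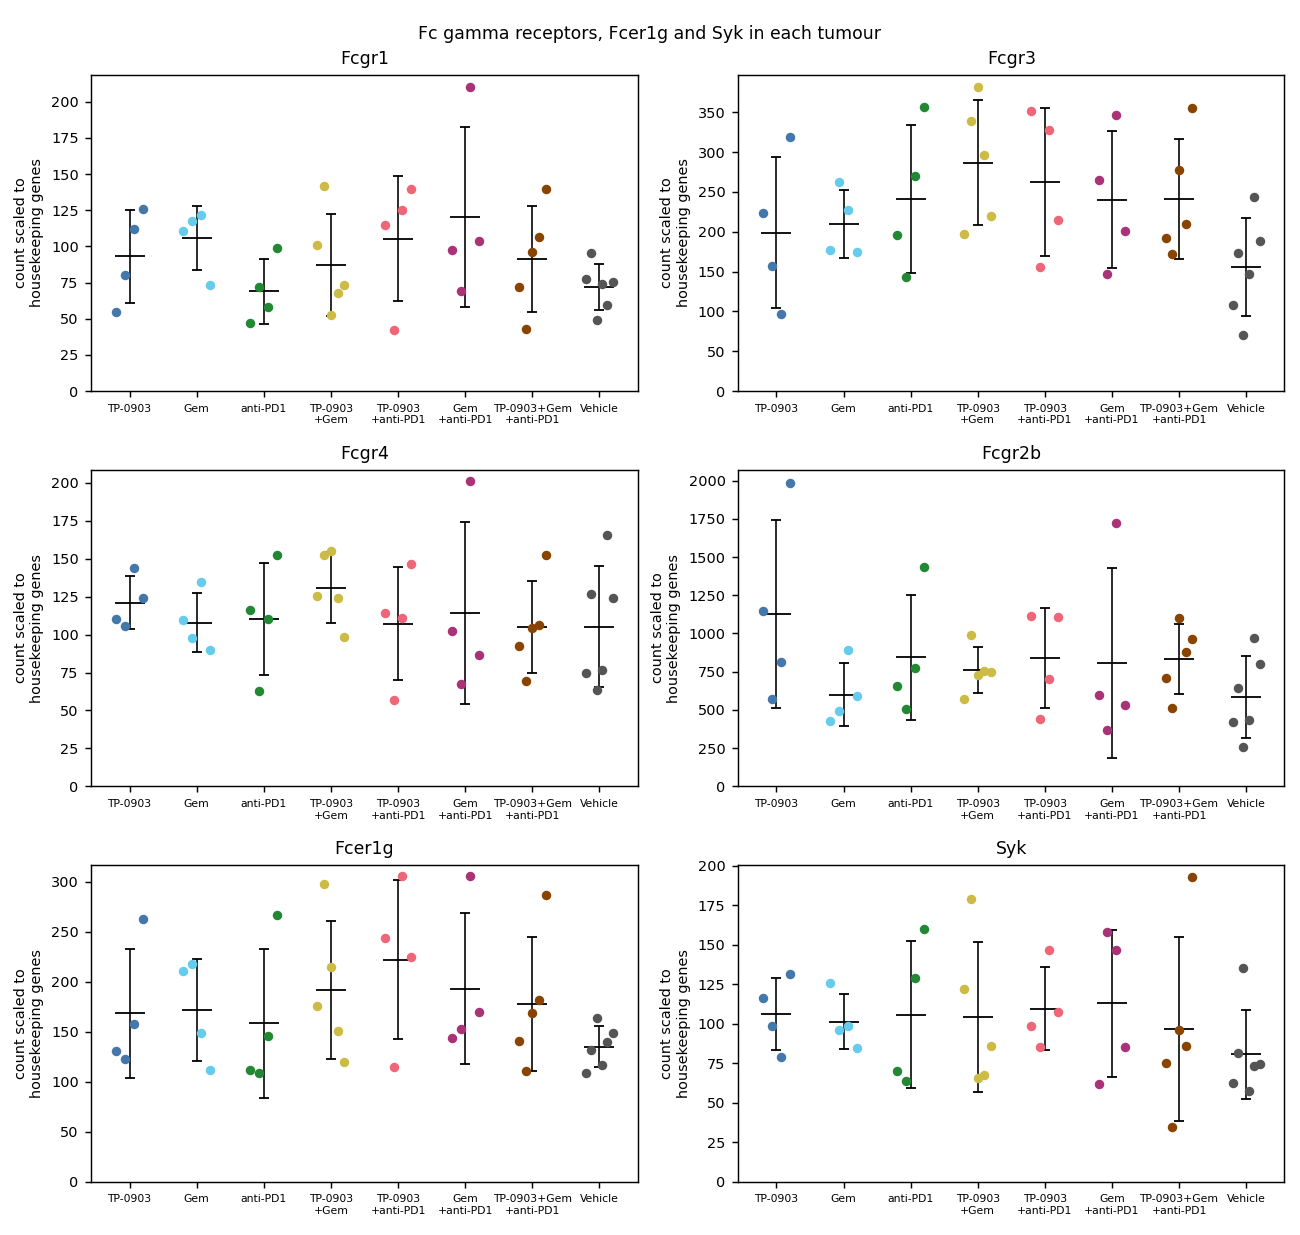
Counts scaled to housekeeping genes (linear axis from 0) of Fcgr1, Fcgr3, Fcgr4, Fcgr2b, Fcer1g and Syk in 36 tumours. Each point is 1 tumour, the bar is the arm mean and the whiskers are SD; Gem is gemcitabine. The treated arms overlap Vehicle in every panel, and Gemcitabine+anti-PD1 holds the highest tumour for Fcgr1 (210), Fcgr4 (201) and Fcer1g (306).

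Fcgr3, the low-affinity activating receptor of macrophages and NK cells, had the smallest unadjusted p of the 42 tests. Its scaled counts were 197, 339, 382, 296 and 219 in TP-0903+Gemcitabine tumours, against a lowest of 70.3, a median of 161 and a highest of 244 in Vehicle tumours. The groups overlapped, and 3 of 5 tumours of the combination exceeded all of Vehicle. The log2 fold was 0.88 ± 0.31 (SE, unadjusted p = 0.00802, adjusted p = 0.189), and 0.73 ± 0.28 (adjusted p = 0.128) without both libraries that stood apart. Scaling to the positive controls in place of the housekeeping genes left 0.09, with all genes then at a median of -0.59.

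In TP-0903+anti-PD1 tumours Fcgr3 was at 352, 156, 328 and 215, and its log2 fold was 0.76 ± 0.33 (SE, adjusted p = 0.410), and 0.61 ± 0.30 (adjusted p = 0.429) without both libraries that stood apart. Anti-PD1 tumours had 197, 143, 270 and 357, and Gemcitabine tumours 177, 262, 228 and 174. Both ranges overlapped that of Vehicle, whose lowest value came from replicate 3. Fcgr3 averaged 287 ± 78.2 (SD, n = 5) in TP-0903+Gemcitabine, 263 ± 92.7 (n = 4) in TP-0903+anti-PD1 and 241 ± 75.0 (n = 5) in TP-0903+Gemcitabine+anti-PD1, against 156 ± 61.3 (n = 6) in Vehicle. No neighbouring pair in the order of the 8 arm means differed by more than the larger of their SDs, and the same held for each of the other 5 genes.

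Fcgr1, the high-affinity receptor, was at 97.6, 68.9, 210 and 104 in Gemcitabine+anti-PD1 tumours, against a lowest of 49.2, a median of 74.5 and a highest of 95.8 in Vehicle tumours. In that arm 3 of 4 tumours were above every Vehicle tumour. The log2 fold was 0.74 ± 0.34 (SE, adjusted p = 0.452), 0.32 without Gemcitabine+anti-PD1 replicate 3, and 0.65 ± 0.35 (adjusted p = 0.336) without both libraries that stood apart. Gemcitabine alone had 111, 118, 121 and 73.1, of which 3 of 4 were above every Vehicle tumour, with a log2 fold of 0.55 ± 0.34 (adjusted p = 0.678), and 0.46 ± 0.35 (adjusted p = 0.789) without both. The lowest mean of Fcgr1 was that of Anti-PD1, at 69.0 ± 22.4 (SD, n = 4), against 71.9 ± 16.0 (n = 6) in Vehicle.

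Fcgr4, the mouse receptor for IgG2a and IgG2b on monocytes, macrophages and neutrophils, had arm means closest to that of Vehicle. The means were between 105 and 131 in the 7 treated arms, against 105 ± 39.9 (SD, n = 6) in Vehicle. In TP-0903+Gemcitabine, the arm with the highest mean, the tumours were at 125, 153, 155, 124 and 98.1, against a lowest of 63.3, a median of 100.3 and a highest of 166 in Vehicle. All 5 lay within the Vehicle range. Across arms the log2 folds lay between 0.00 ± 0.28 in TP-0903+Gemcitabine+anti-PD1 and 0.32 ± 0.28 in TP-0903+Gemcitabine (SE). In the fit without both libraries that stood apart they lay between -0.11 ± 0.28 and 0.21 ± 0.28 in the same arms, and 5 of the 7 were below 0. In TP-0903+Gemcitabine 4 of 5 tumours were above the Vehicle mean.

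Fcgr2b, the inhibitory receptor, had its highest arm mean in TP-0903. The 4 TP-0903 tumours were at 1148, 574, 814 and 1981, against a lowest of 255, a median of 539 and a highest of 971 in Vehicle tumours. The arms overlapped, with 2 of 4 TP-0903 tumours above every Vehicle tumour. The log2 fold was 0.95 ± 0.40 (SE, unadjusted p = 0.0228, adjusted p = 0.236). It was 0.53 without TP-0903 replicate 4, whose 1981 was the highest value of the 36, and 0.92 ± 0.42 (adjusted p = 0.685) without both libraries that stood apart, of which Vehicle replicate 3 held the lowest value of the 36.

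In the other arms Fcgr2b averaged between 601 ± 206 (SD, n = 4) in Gemcitabine and 844 ± 410 (n = 4) in Anti-PD1, against 586 ± 267 (n = 6) in Vehicle. Gemcitabine+anti-PD1 tumours had 595, 369, 1725 and 530. Of these, 3 lay within the Vehicle range and 1 far above it, and the log2 fold of 0.46 ± 0.40 (SE) was -0.24 without replicate 3 of that arm, and 0.30 ± 0.39 without both libraries that stood apart.

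**Figure D2:**
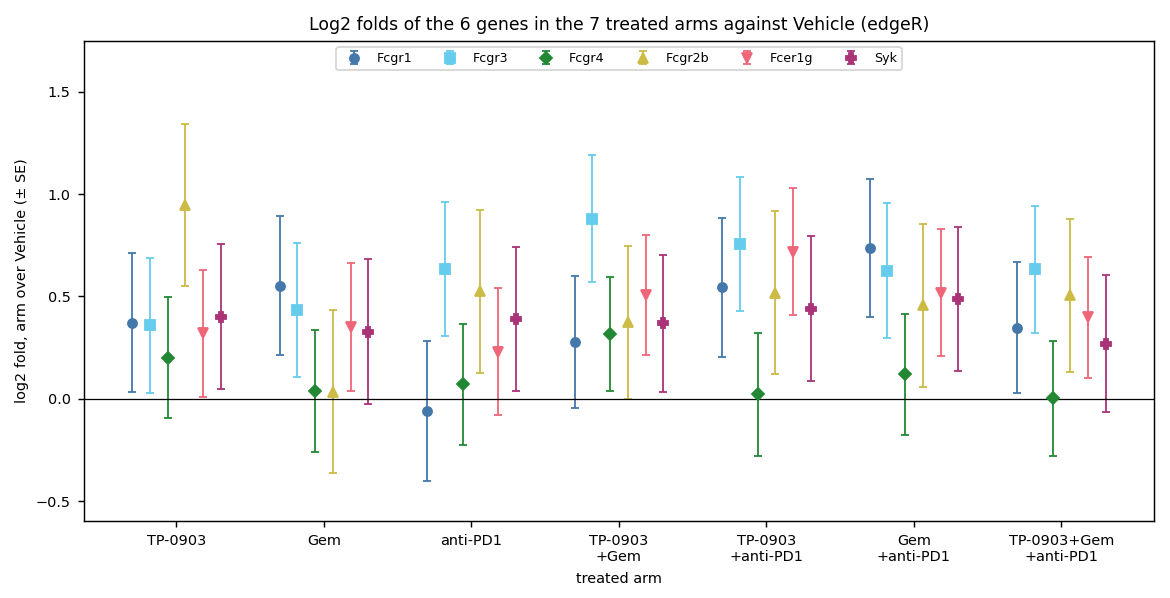
Log2 fold of each gene in each treated arm over Vehicle (points) with its standard error (whiskers), from the edgeR fit of all 36 tumours. Most points lie above 0, the highest being Fcgr2b in TP-0903 at 0.95, and none had an adjusted p under 0.05.

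Fcer1g, the ITAM chain that the activating receptors need for surface expression, was at 244, 115, 306 and 225 in TP-0903+anti-PD1 tumours, against a lowest of 109, a median of 136 and a highest of 164 in Vehicle tumours. In that arm 3 of 4 tumours were above every Vehicle tumour and 1 was near the lowest. The log2 fold was 0.72 ± 0.31 (SE, unadjusted p = 0.0275, adjusted p = 0.410), and 0.78 ± 0.33 (adjusted p = 0.305) without both libraries that stood apart. With cartridge in the fit the same fold was 1.58 ± 0.69 (adjusted p = 0.887). Gemcitabine tumours had Fcer1g counts of 211, 217, 148 and 112, and Gemcitabine+anti-PD1 tumours 144, 153, 306 and 170, each with 2 of 4 above every Vehicle tumour. Vehicle had the smallest spread of the 8 arms for Fcer1g, with SDs of 51.0 to 79.6 in the treated arms, against 20.3 in Vehicle.

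Syk, the kinase downstream of the chain, had arm means between 96.8 ± 58.5 (SD, n = 5) in TP-0903+Gemcitabine+anti-PD1 and 113 ± 46.6 (n = 4) in Gemcitabine+anti-PD1, against 80.7 ± 28.2 (n = 6) in Vehicle. Gemcitabine+anti-PD1 tumours were at 61.9, 158, 147 and 85.3, against a lowest of 57.2, a median of 73.8 and a highest of 136 in Vehicle, so 2 of 4 exceeded the Vehicle range. Its log2 folds were between 0.27 ± 0.33 in TP-0903+Gemcitabine+anti-PD1 and 0.49 ± 0.35 in Gemcitabine+anti-PD1 (SE), with adjusted p-values from 0.588 to 0.975. The highest Vehicle value of Syk, 136, belonged to replicate 3, the library with the lung gene. Without both libraries that stood apart, the log2 fold of TP-0903 was 0.73 ± 0.38 (adjusted p = 0.736), against 0.40 ± 0.35 with them. The lowest and the highest Syk value of the 36 tumours, 34.6 and 193, both belonged to TP-0903+Gemcitabine+anti-PD1.

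Averaged over the backgrounds of the other agents, no agent moved any of the 6 genes past the threshold. The largest average log2 effect of TP-0903 was 0.33 ± 0.21 for Fcgr2b (SE, adjusted p = 0.634), that of gemcitabine 0.27 ± 0.18 for Fcgr1 (adjusted p = 0.539) and that of anti-PD1 0.24 ± 0.17 for Fcgr3 (adjusted p = 0.866). Without both libraries that stood apart these were 0.33 ± 0.20, 0.27 ± 0.18 and 0.15 ± 0.16, and the largest anti-PD1 effect was then 0.18 ± 0.17, for Fcer1g. Among all tested genes 0% were called for TP-0903 (11.4% at an unadjusted p under 0.05), 0.146% for gemcitabine (14.3%) and 0% for anti-PD1 (5.71%).

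The interaction of TP-0903 with gemcitabine, which asks whether the effect of one depends on the other, was averaged over tumours without and with anti-PD1. It was -0.82 ± 0.36 on the log2 scale for Fcgr1 (SE, unadjusted p = 0.0284, adjusted p = 0.852), and -0.73 ± 0.36 (adjusted p = 0.622) without both libraries that stood apart. The estimate was -0.65 in the arms without anti-PD1 and more negative, at -1.0, in the arms with it. Fcgr1 averaged 93.4 ± 32.1 in TP-0903 and 106 ± 22.2 in Gemcitabine (SD, n = 4 each), and 87.2 ± 35.0 (n = 5) in TP-0903+Gemcitabine, against 71.9 ± 16.0 (n = 6) in Vehicle. With anti-PD1 in every arm the means were 105 ± 43.2 in TP-0903+anti-PD1 and 120 ± 62.1 in Gemcitabine+anti-PD1 (n = 4 each), and 91.4 ± 36.5 (n = 5) in TP-0903+Gemcitabine+anti-PD1, against 69.0 ± 22.4 (n = 4) in Anti-PD1. In both sets the mean of the combination lay below that of each agent alone, by less than their SDs. No gene of the 683 was called for this interaction (0%, and 5.12% at an unadjusted p under 0.05). For TP-0903 with anti-PD1, 1.46% of genes were called (11.6% unadjusted) and none of the 6, and for gemcitabine with anti-PD1 0% (3.66% unadjusted). The test of any difference among the 8 arms called 5.56% of genes (13.8% unadjusted), and the 6 genes had adjusted p-values of 0.688 for Fcgr3 and higher. Without both libraries that stood apart 1 gene of the panel was called for any difference, against 38 with them. For TP-0903 with anti-PD1 0 genes were then called, against 10 with them. The smallest adjusted p of the 6 genes for any difference was then 0.652.

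The balance of activating and inhibitory receptors was described as the log2 count of an activating receptor minus that of Fcgr2b within each tumour. Only differences of this value between arms carry meaning, since the probes differ. Fcgr3 minus Fcgr2b averaged -2.48 ± 0.50 (SD, n = 4) in TP-0903 and -1.43 ± 0.32 (n = 5) in TP-0903+Gemcitabine, against -1.88 ± 0.18 (n = 6) in Vehicle. Fcgr4 minus Fcgr2b averaged -3.07 ± 0.75 in TP-0903 and -2.97 ± 0.27 in TP-0903+Gemcitabine+anti-PD1, against -2.42 ± 0.24 in Vehicle, the same value as the -2.42 ± 0.37 of Gemcitabine. Fcgr1 minus Fcgr2b averaged -3.50 ± 0.79 in TP-0903 and -3.53 ± 0.49 in Anti-PD1, against -2.90 ± 0.65 in Vehicle. The TP-0903 arm was the lowest for Fcgr3 and Fcgr4, but its tumours ranged from -3.05 to -1.86 for Fcgr3 minus Fcgr2b, and Vehicle tumours from -2.07 to -1.55. The -3.05 belonged to TP-0903 replicate 3, the library with the liver gene. Without both libraries that stood apart, which was chosen after seeing the data, Fcgr3 minus Fcgr2b averaged -2.28 ± 0.39 in TP-0903 (n = 3), against -1.89 ± 0.20 in Vehicle (n = 5). Fcgr4 minus Fcgr2b then averaged -3.26 ± 0.79, against -2.50 ± 0.12, and Fcgr1 minus Fcgr2b -3.72 ± 0.80, against -3.02 ± 0.66. No test was run on these values.

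Most of the variation lay between tumours of the same arm. The share of log2 variance found within arms was 71.3% for Fcgr3, 79.8% for Fcgr2b, 81.1% for Fcgr1, 83.1% for Fcer1g, 89.9% for Syk and 90.8% for Fcgr4. The median over tested genes was 80.3%, and with no arm differences 80% would be the average. Between the lowest and the highest tumour the counts spanned 2.81-fold for Fcer1g, 3.55-fold for Fcgr4, 4.94-fold for Fcgr1, 5.43-fold for Fcgr3, 5.57-fold for Syk and 7.77-fold for Fcgr2b.

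Across the 36 tumours the 6 genes were positively correlated with each other. Pearson's r of log2 scaled counts over the 15 pairs was between 0.313 and 0.758 with a median of 0.563, and 13 pairs had a permutation p adjusted over the 15 pairs under 0.05. Spearman's rho was between 0.305 and 0.737, and 14 pairs passed. For comparison, rho over all 232903 pairs of tested genes had a median of 0.100 and a 90th percentile of 0.437. All values share the housekeeping factor of their lane.

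With all 36 tumours, the tightest pair was Fcgr2b and Fcgr4. These genes had r = 0.758 and rho = 0.737 (n = 36, adjusted permutation p = 5e-05 and 6e-05), and r = 0.773 without the 2 tumours farthest from the median of Fcgr2b. Fcgr2b and Fcgr3 had r = 0.713 and rho = 0.713 (adjusted permutation p = 6e-05 and 3.75e-05), and r = 0.637 without 2 such tumours. The order changed without both libraries that stood apart. There r was 0.784 for Fcgr3 and Fcer1g, 0.758 for Fcgr1 and Fcer1g and 0.733 for Fcgr2b and Fcgr4. Fcgr3 and Fcer1g had r = 0.641 over all tumours, and 0.784 without the 2 tumours farthest from the median of Fcgr3. A p of 1e-05 before adjustment is the smallest that 100000 permutations can give.

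Fcer1g was the gene most closely tied to Fcgr1 and to Syk. Its r was 0.727 with Fcgr1 (rho = 0.725, adjusted permutation p = 5e-05 and 3.75e-05) and 0.700 with Syk (rho = 0.698, adjusted permutation p = 5e-05 and 3.75e-05). Without the 2 farthest tumours these were 0.677 and 0.665. Syk in turn was weakly tied to the low-affinity receptors, with r = 0.313 for Fcgr2b and 0.318 for Fcgr3 (rho = 0.337 and 0.382, adjusted permutation p of r = 0.0616 for both, of rho = 0.0480 and 0.0248). For Fcgr4 and Syk r was 0.355 and rho 0.305 (adjusted permutation p = 0.0377 and 0.0690).

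The median r over the 15 pairs was lowest in cartridge 1, the cartridge of both libraries that stood apart. Within cartridge 1, which held all Vehicle and TP-0903 tumours, r was between -0.049 (Fcgr4 and Syk) and 0.733 (Fcgr2b and Fcgr4), with a median of 0.328. Within cartridges 2 and 3 it was between 0.227 and 0.848 and between 0.338 and 0.936, with medians of 0.642 and 0.792, each over 12 tumours. For Fcer1g with Syk it was 0.662, 0.653 and 0.773 in cartridges 1, 2 and 3, and for Fcgr2b with Fcgr3 0.697, 0.786 and 0.741. For Fcgr1 with Syk it was 0.066 in cartridge 1, and 0.660 and 0.629 in cartridges 2 and 3. After subtracting arm means, r was between 0.275 and 0.815.

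**Figure D3:**
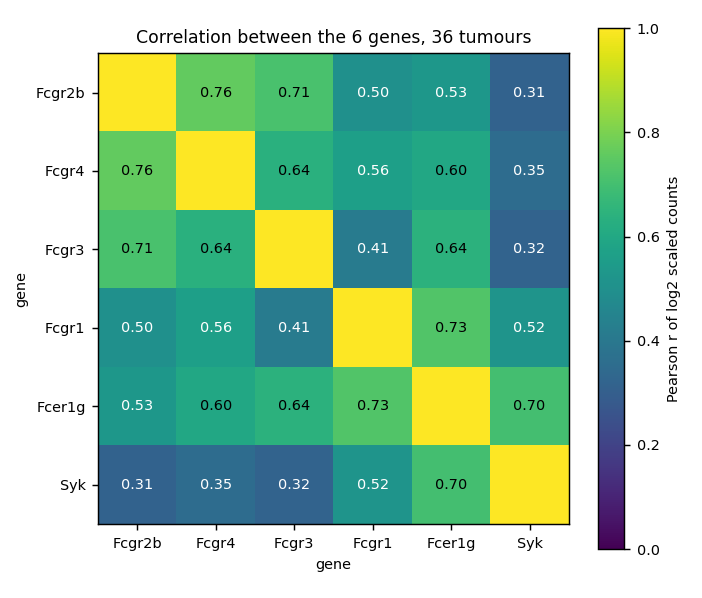
Pearson's r of log2(scaled count + 1) over 36 tumours for each pair of genes, from 0 (dark) to 1 (light). The receptors Fcgr2b, Fcgr4 and Fcgr3 have r from 0.64 to 0.76 among themselves, and Syk has its highest r, 0.70, with Fcer1g.

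The 6 genes also followed macrophage markers, and this was described with no test because all values come from the same libraries. Against the mean log2 count of 12 macrophage and monocyte markers, r was 0.902 for Fcer1g, 0.710 for Syk, 0.702 for Fcgr4, 0.646 for Fcgr2b, 0.645 for Fcgr1 and 0.584 for Fcgr3 over 36 tumours. Against the pan-leukocyte gene Ptprc, r was 0.809 for Syk and 0.714 for Fcer1g, and 0.535 for Fcgr1, 0.244 for Fcgr4, 0.160 for Fcgr3 and 0.090 for Fcgr2b. These r values include both libraries that stood apart and were not recomputed without them. Vehicle replicate 3 had Ptprc at 316, with at most 318 in the tumours outside this pair, and a macrophage mean of 7.60. It also had the lowest Fcgr2b (255) and Fcgr3 (70.3) of the 36, and its part in these low r values was not tested. Syk is expressed in B cells as well as myeloid cells.

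The macrophage mean was 7.59 ± 0.38 (SD, n = 4) in TP-0903, 7.57 ± 0.40 (n = 5) in TP-0903+Gemcitabine, 7.54 ± 0.48 (n = 4) in TP-0903+anti-PD1 and 7.60 ± 0.48 (n = 4) in Gemcitabine+anti-PD1, the arms of the 5 unadjusted results above, against 7.16 ± 0.33 (n = 6) in Vehicle. Of these 12 markers 0 were called in those 4 comparisons, and their median log2 folds were 0.46, 0.26, 0.42 and 0.48. Their summed counts ranged over 3720 to 11090, 5517 to 10540, 4344 to 9398 and 6053 to 13070 in those arms, against 3288 to 39940 in Vehicle. The 39940 was that of Vehicle replicate 3, and the other 5 Vehicle tumours had sums of 3288 to 4665. The macrophage mean without both libraries that stood apart was 7.54 ± 0.44 in TP-0903 (n = 3), against 7.07 ± 0.28 in Vehicle (n = 5). With all tumours it was also above that of Vehicle in the remaining arms. These were Gemcitabine (7.31 ± 0.24, n = 4), Anti-PD1 (7.40 ± 0.59, n = 4) and TP-0903+Gemcitabine+anti-PD1 (7.36 ± 0.45, n = 5). Cd68, Csf1r and Emr1, the defining macrophage markers, were above background in all tumours. In the 4 arms of the unadjusted results their medians were 210 to 259 for Cd68, 127 to 187 for Emr1 and 371 to 553 for Csf1r. Vehicle had 179, 92.3 and 382. The part of macrophage content in the folds of the 6 genes was not tested. The 6 neutrophil markers had median log2 folds of 1.05, 1.79, 3.42 and 1.74 in the same 4 arms with 0 called, and their part was not tested either. In TP-0903+Gemcitabine+anti-PD1 2 of the 6 were called higher, the granule genes Mpo (log2 fold 4.81, adjusted p = 0.0217 in the edgeR fit) and Elane (3.76, adjusted p = 0.0484). Both were also called for any difference among the arms. In that arm against Vehicle 6 genes of the panel (0.878%) were called. Without both libraries that stood apart 0 genes were called there, and 0 with cartridge in the fit, so neither call held. The summed neutrophil counts of that arm ranged from 246 to 7262 with a median of 1170, against 243 to 1569 with a median of 571 in Vehicle.

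**Figure D4:**
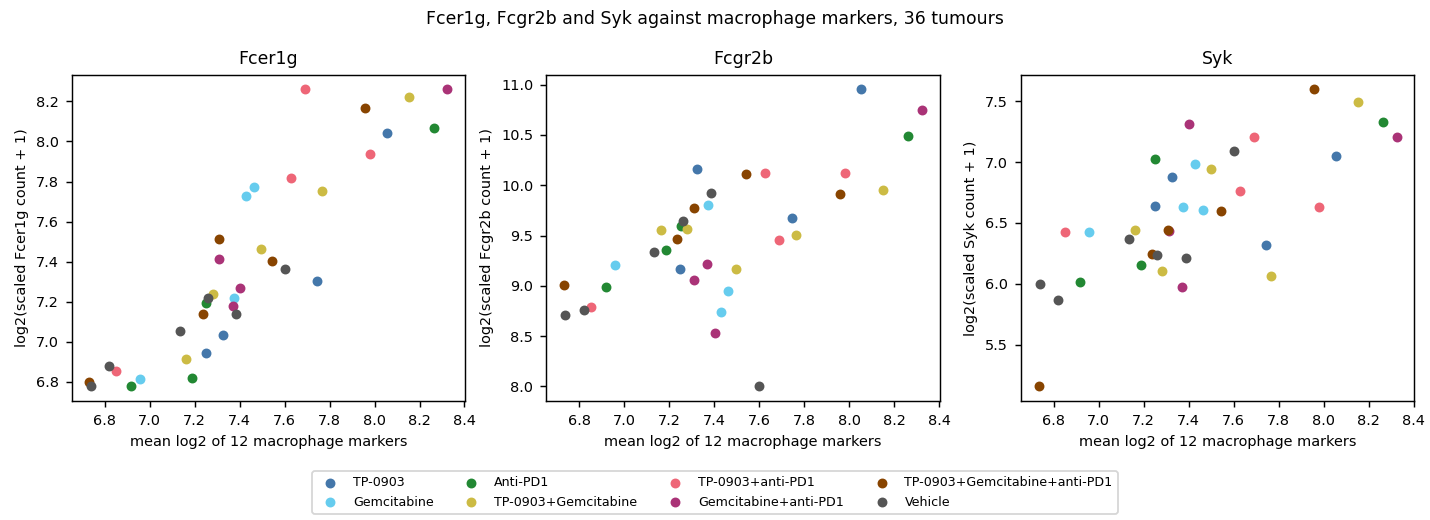
Log2(scaled count + 1) of Fcer1g, Fcgr2b and Syk (vertical) against the mean log2 count of 12 macrophage markers (horizontal), 1 point per tumour, coloured by arm. Fcer1g lies closest to a line (r = 0.902), and the Vehicle tumour at the bottom of the Fcgr2b panel is replicate 3.

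Among all other tested genes, those with the most similar pattern over the 36 tumours were listed for each gene by Spearman's rho. For Fcgr1 they included C1qa (0.784) and Cd68 (0.735). For Fcgr3 they were Itgam (0.859), C1qa (0.812) and the collagen gene Col3a1 (0.790). Fcgr2b and Fcgr4 had the same leading pair, C1qb (0.807 and 0.753) and the mannose receptor Mrc1 (0.807 and 0.743), followed by the chemokine Ccl9 (0.780) for Fcgr2b and by Apoe (0.702) for Fcgr4. Fcer1g was closest to Ncf4 (0.886), a subunit of the phagocyte NADPH oxidase, to Abcg1 (0.844) and to C1qa (0.840). Syk was closest to Selplg (0.851), to the kinase gene Pik3cd (0.783) and to Ptprc (0.782). The complement genes C1qa and C1qb thus appeared for 5 of the 6 genes and not for Syk.

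The wider pathway was read from 5 lists, and none of their genes was called in any of the 14 comparisons. The lists covered 51 tested genes and so 714 tests, of which 46 (6.4%) had an unadjusted p under 0.05, against 983 of 9562 (10.3%) over all tested genes. Of 3 other Fc receptors, including the IgE receptor chains Fcer1a and Ms4a2, and of the inhibitory genes Inpp5d and Cd22, 0 of 5 had an unadjusted p under 0.05 in any arm against Vehicle. Their counts were low, so a difference could have been missed. Arm medians of the summed scaled counts were 37.5 to 57.3 for the 3 Fc receptors and 40.5 to 62.8 for Inpp5d and Cd22. Fcer1a was above background in 22 of 36 tumours. Inpp5d had log2 folds between -0.15 ± 0.35 and 0.07 ± 0.37 (SE) over the 7 arms.

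Among 24 kinases, adaptors and effectors downstream of Syk, 0 were called in any arm and at most 4 had an unadjusted p under 0.05, in TP-0903+anti-PD1, where 10.7% of all tested genes did. Cybb, the catalytic subunit of the phagocyte oxidase, had a log2 fold of 0.80 ± 0.29 (SE, adjusted p = 0.284) in Gemcitabine+anti-PD1. The median log2 fold of this list was between -0.07 and 0.10 over the arms, and the medians of the 6 genes were 0.31 to 0.53.

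A further list held other receptors that signal through Syk or an ITAM adaptor. Clec4n, which encodes the fungal receptor Dectin-2, had a log2 fold of 1.49 ± 0.39 (SE, adjusted p = 0.0653) in TP-0903+Gemcitabine and 1.41 ± 0.41 (adjusted p = 0.120) in Gemcitabine+anti-PD1. Clec7a, which encodes Dectin-1, had 1.18 ± 0.33 (adjusted p = 0.120) in Gemcitabine+anti-PD1, and its average effect of gemcitabine was 0.70 ± 0.17 (adjusted p = 0.0613). Of the 13 tested genes of this list 0 passed in either direction. Among 9 complement and IgG partners, Cr2, the complement receptor of B cells and follicular dendritic cells, had an average gemcitabine effect of 1.03 ± 0.24 (adjusted p = 0.0613), and 0 of 9 passed.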

How the data were processed

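Raw probe counts of 36 mouse pancreatic tumours, in 8 treatment arms named in the labels, were used. The series' design text speaks of normalization to control probes and housekeeping genes, but the counts the authors deposited equal the raw lane report in 27720 of 27720 values. The deposited lane report also holds other values per the file headers (lane attributes, control probes, cartridge). No per-sample column was left unused. In the lane report, 7 lane identifiers carry a suffix that no source explains.

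Genes exceeding background (mean of the negative controls plus 2 SD in that lane, between 8.21 and 26.3 counts) in 4 or more lanes were tested, 683 in all, and 67 were left out. Each lane was normalised by the geometric mean of its 20 housekeeping genes. All 36 tumours entered a single edgeR quasi-likelihood fit with robust dispersions (R 4.3.3, limma 3.58.1, edgeR 4.0.16). Tests were two-sided, with Benjamini-Hochberg adjustment over 683 genes within each of 14 comparisons, called at an adjusted p under 0.05. An average effect is the mean over the backgrounds of the other agents. The common biological coefficient of variation was 0.477. Correlations used log2(scaled count + 1) and 100000 permutations (scipy 1.17.1). The fit was tested on simulated data with a smaller spread than these tumours and with no cartridge effect or outlying library. That check therefore does not measure how well the fit finds differences in these tumours. No 2 tumours of an arm agreed within sampling noise.

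The 6 genes and the gene lists were chosen with earlier results of these data known. Named are the 6 genes, the 3 genes most like each by Spearman's rho (1 of them is not reported here), and from the 5 pathway lists any gene called or otherwise those with the smallest p. Probes were matched to RefSeq (GRCm38.p6) for 727 of 750 endogenous genes. Alternatives were TMM, positive-control scaling, DESeq2 1.42.0, limma, no filter, a cartridge block, only the 2 arms, cartridge 1 alone, and libraries left out.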

Additional observations from a re-analysis of the deposited data

Results flagged for a closer look

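In 48 groups (6 genes in 8 arms), 3 had a tumour far from the others by Dixon's criterion, and chance alone marks about 1 in 20 groups. Gemcitabine+anti-PD1 replicate 3 had a scaled Fcgr2b count of 1725, with 369 to 595 in the other 3 tumours of its arm. The same tumour had a Fcer1g count of 306, with 144 to 170 in the others. It also held the highest Fcgr1 (210), Fcgr4 (201), Csf1r (953) and Emr1 (399) of the 36 tumours. Vehicle replicate 3 had a Syk count of 136, with 57.2 to 81.4 in the other Vehicle tumours, and it is the tumour with the lung gene Cxcl15 at 11750 and with the lowest Fcgr2b (255) and Fcgr3 (70.3) of the 36.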

How the results depend on the processing

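The count of the 6 genes called was 0 in every comparison run under the 45 alternative settings (3666 tests). The fit of only the 2 arms gave the 7 comparisons with Vehicle, cartridge 1 alone gave 2, and the other settings gave all 14. The smallest adjusted p among them was 0.110, for Fcgr2b in TP-0903 without TP-0903 replicate 2. Signs were less stable: of 3408 recomputed log2 folds 144 changed sign, 7 of them where the fold had exceeded its standard error. With positive-control scaling, which moved the median of all genes to -0.59 in TP-0903+Gemcitabine, the folds there were -0.41 for Fcgr4, -0.20 for Fcer1g and -0.22 for Syk. Fcgr1 (-0.39) and Fcgr2b (-0.34), whose folds had not exceeded their standard errors, were also below 0 there, and Fcgr3 was at 0.09. With the same scaling the average gemcitabine effect on Fcgr3 was -0.016 and the interaction of TP-0903 with anti-PD1 for Fcgr4 was 0.11. With the cartridge block Fcgr2b in Anti-PD1 was -0.17. Leaving out 1 tumour at a time, Fcgr2b in Gemcitabine+anti-PD1 was between -0.24 and 0.70. The correlations of Syk with Fcgr2b and Fcgr3 passed the threshold with positive-control scaling (r = 0.535 and 0.539) and without both libraries that stood apart (0.427 and 0.469). The cause of these changes was not tested.

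Genes called over the panel moved more. With 1 tumour left out they numbered 0 to 47 for TP-0903 (33 with all), 0 to 9 for TP-0903+Gemcitabine (3), 0 to 11 for TP-0903+Gemcitabine+anti-PD1 (6), 0 to 13 for the average gemcitabine effect (1), 0 to 22 for the interaction of TP-0903 with anti-PD1 (10) and 8 to 42 for any difference (38). The TP-0903 count was 0 without TP-0903 replicate 3. Without both libraries that stood apart the counts were 0 for TP-0903, 4 for TP-0903+Gemcitabine and 0 for TP-0903+Gemcitabine+anti-PD1. They were 17 for the average gemcitabine effect, 0 for the interaction of TP-0903 with anti-PD1 and 1 for any difference. TP-0903+Gemcitabine had 140 with positive-control scaling, and the average gemcitabine effect 25 with DESeq2. No paired analysis was run because the labels name no pairing of tumours between arms. They give no replicate numbers either, and those used here follow the order of the samples within each arm. All 6 genes were above background in every lane, and the number of tumours per arm (4 to 6) limits their precision.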
